A study of Mus musculus with 149 samples.

Results

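Cyp1a2 and 5 receptor genes that act upstream of xenobiotic metabolism were followed through single captured cells of the mouse liver. Nearly all captures held hepatocyte markers, and some also held markers of another liver cell type. The gene set holds 6 of the 20308 mouse genes of the deposited table: Cyp1a2, Ahr, Arnt, Nr1i2, Nr1i3 and Rxra. The genes were taken by name, and all 6 belong to the 8813 genes that had values above 0 in 20% of the cells or more. The study measured 149 single cells from the liver of 1 wild-type male C57BL/6 mouse, 8 weeks old and with no treatment named in the labels beyond the perfusion that freed the cells. Cells were caught on Fluidigm C1 microfluidic chips of 3 trap sizes. Traps of 17 to 25 µm (large chip) hold 80 cells, those of 10 to 17 µm (medium chip) 30 and those of 5 to 10 µm (small chip) 39. By its title the series is about recovering where cells sat in the hepatic lobule, the unit that runs from the portal tract, where blood enters, to the central vein, where it leaves.

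CYP1A2 is a liver cytochrome P450 that oxidises caffeine and aromatic amines. In the mouse liver Cyp1a2 is known as a gene of the hepatocytes around the central vein. The aryl hydrocarbon receptor (AHR) waits in the cytosol with chaperones, enters the nucleus when it binds a planar aromatic ligand, pairs there with ARNT and binds DNA near Cyp1a genes. CAR (the product of Nr1i3) and PXR (the product of Nr1i2) are nuclear receptors that bind DNA as pairs with an RXR such as RXRA and control P450, conjugation and transport genes.

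The promoters of Cyp1a2, Nr1i3 and Arnt are shown because in the large chip the first pair of genes ran together from cell to cell and Arnt ran apart from both. Each window covers 250 bases before to 50 after the start that RefSeq gives on GRCm38.p6, written 5′ to 3′ on the strand of the gene, and capitals mark matches to the motifs searched. The Cyp1a2 window lies at chr9:57683606-57683905 on the minus strand, that of Nr1i3 at chr1:171213720-171214019 on the plus strand and that of Arnt at chr3:95434140-95434439 on the plus strand.
Cyp1a2: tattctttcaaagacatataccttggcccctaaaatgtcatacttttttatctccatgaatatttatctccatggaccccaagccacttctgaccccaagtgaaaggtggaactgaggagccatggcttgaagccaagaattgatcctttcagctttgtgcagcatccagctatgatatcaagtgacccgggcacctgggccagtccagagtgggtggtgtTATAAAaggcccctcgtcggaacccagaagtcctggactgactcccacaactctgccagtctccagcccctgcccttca
Nr1i3: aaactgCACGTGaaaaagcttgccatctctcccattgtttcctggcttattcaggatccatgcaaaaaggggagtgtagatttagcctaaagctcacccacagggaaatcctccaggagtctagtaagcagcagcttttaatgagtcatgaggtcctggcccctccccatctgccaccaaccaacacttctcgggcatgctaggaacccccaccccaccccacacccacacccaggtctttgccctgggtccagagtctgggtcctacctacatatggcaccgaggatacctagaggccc
Arnt: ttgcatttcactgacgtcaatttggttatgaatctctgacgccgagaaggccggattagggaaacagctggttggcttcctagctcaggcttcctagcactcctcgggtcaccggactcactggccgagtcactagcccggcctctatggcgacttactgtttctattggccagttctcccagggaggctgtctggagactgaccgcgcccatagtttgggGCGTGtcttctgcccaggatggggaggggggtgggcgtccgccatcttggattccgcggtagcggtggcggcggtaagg
The letters searched, on both strands, were GCGTG (the core of the element that AHR and ARNT bind), AGGTCA (a nuclear receptor half-site), TATAAA and CACGTG, of which none overlaps another here. TATAAA begins at -29 of the Cyp1a2 start, and 13.6% of the 32851 promoters of this length in the table hold it. The Arnt window holds GCGTG at -29, as 32.4% of all promoters do, and the Nr1i3 window holds CACGTG at -244, as 7.15% do. No match of these letters was found in the Nr1i2 window. The promoter table gives 6 windows for 5 of the 6 genes, 2 of them for Rxra, where the downstream one holds AGGTCA on each strand (16.3% of all promoters hold it on either). The Arnt window has 19 CpG dinucleotides and the upstream Rxra window 55, against 3 in the Cyp1a2 and Nr1i3 windows, 2 in the Nr1i2 window and a median of 7 over all promoters. Matches are letters in a window, with no binding measured here.

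In the mm10 annotation (GENCODE release M21) the genes are protein coding and lie apart. Cyp1a2 spans chr9:57676937-57683703 on the minus strand, with 7 exons in its longest coding transcript of 1940 bases. Ahr spans chr12:35497974-35535038 (minus), with 11 exons in 5548 bases, and Arnt chr3:95434388-95497240 (plus), with 21 exons in 4325 bases. Nr1i3 spans chr1:171213970-171220701 (plus, 2980 bases), Nr1i2 chr16:38248323-38294824 (minus, 2553 bases) and Rxra chr2:27676440-27762957 (plus, 4905 bases).

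The deposited values are normalised expected counts, called values here. Synthetic spike-in RNA took 50% or more of a cell's summed values in 16 of 80 large-chip cells, 23 of 30 medium-chip cells and 27 of 39 small-chip cells. A median of 7389.5 mouse genes was above 0 among large-chip cells, 2306.5 among medium-chip cells and 3087 among small-chip cells. The main results are therefore also given for the cells with spike-ins under 50% (64 large, 7 medium and 12 small). Hepatocyte markers were present in nearly all cells: at least 5 of 6 hepatocyte marker genes stood at 10 or more in 80 of 80 large-chip, 29 of 30 medium-chip and 39 of 39 small-chip cells. Some cells also held 3 or more markers of another liver cell type at 10 or more. These were 10 of 80 large-chip cells (7 endothelial and 3 cholangiocyte), 5 of 30 medium-chip cells (4 Kupffer and 1 stellate) and 4 of 39 small-chip cells (2 Kupffer and 2 endothelial). All cells come from 1 mouse and each chip is 1 sample, so cells are not replicates of a condition. No test was possible and no p-value is given. Correlations are Spearman's rho across cells that share the mouse, the chip, its capture and its libraries.

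Counted over all cells, Cyp1a2 was above 0 in most cells of every chip, and its values ranged from 0 to 6677. Its large-chip lowest, median and highest values were 0, 11.5 and 1851, with a value above 0 in 62 of 80 cells (77.5%, exact 95% Clopper-Pearson interval 66.8% to 86.1%). The medium chip gave 0, 13.4 and 1696, with 22 of 30 cells above 0 (73.3%, 54.1% to 87.7%). In the small chip the values were 2.97, 148 and 6677, and 39 of 39 cells were above 0 (100%, 91.0% to 100%). Every small-chip cell thus carried a Cyp1a2 value, while the 2 other chips each had cells listed at 0. Among cells with spike-ins under 50%, 52 of 64 large-chip, 3 of 7 medium-chip and 12 of 12 small-chip cells were above 0, so most of those medium-chip cells were listed at 0. Without the cells that hold markers of another type, Cyp1a2 was above 0 in 53 of 70, 17 of 25 and 35 of 35 cells of the large, medium and small chips. The highest small-chip value (6677) and the medium chip's highest pair (1696 and 1046) came from such cells, each with Kupffer markers, and without them the highest values were 5219 and 863. These intervals cover the counting of cells only, and the read depth behind a value is unknown.

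Detection of Cyp1a2 in all small-chip cells stood against the trend of the table. The median gene was above 0 in a share of small-chip cells that differed by -33.8 percentage points from its share of large-chip cells. For Cyp1a2 the difference was 22.5 points in the other direction, and 12 of the 8813 genes had a larger one. Of the 119 genes above 0 in all small-chip cells, 1 was above 0 in under 80% of large-chip cells, and that gene was Cyp1a2. The limit of 80% lies just above the large-chip share of Cyp1a2 itself (77.5%), so this count is not separate support. Other genes of the central vein did not share this as a group: Oat was above 0 in 89.7% of small-chip and 58.8% of large-chip cells, whereas Cyp2e1 (97.4% and 100%) and Glul (58.97% and 77.5%) were not detected more often in the small chip. The lowest small-chip value, 2.97, is also the smallest Cyp1a2 value above 0 in any cell with spike-ins at 50% or more, and it recurs in 10 cells of the series, 9 of them such cells. Values near 3 thus lie at the floor for this gene in cells with spike-ins at 50% or more. In cells with spike-ins under 50% the lowest value above 0 was 0.46.

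Among the receptors, Rxra, the shared partner of CAR and PXR, was the most widely seen. Its lowest, median and highest values were 0, 25.7 and 939 on the large chip, 0, 9.07 and 494 on the medium one and 0, 11.9 and 924 on the small one. It was above 0 in 74 of 80, 19 of 30 and 30 of 39 cells of these chips in the same order. Among cells with spike-ins under 50% it was above 0 in 64 of 64, 7 of 7 and 12 of 12, so the cells without an Rxra value all had spike-ins at 50% or more.

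Ahr was above 0 most often in the large chip when all cells are counted. Large-chip values had a lowest, median and highest of 0, 7.14 and 1895, with 61 of 80 cells above 0 (76.2%, 65.4% to 85.1%). The medium chip gave 0, 0 and 30.6, with 6 of 30 cells above 0 (20.0%, 7.71% to 38.6%), and the small chip 0, 0 and 108, with 16 of 39 (41.03%, 25.6% to 57.9%). The shares were closer among cells with spike-ins under 50%: 52 of 64 large-chip, 5 of 7 medium-chip and 7 of 12 small-chip cells, with intervals that overlap. Spike-in share moved with this difference, and its part in it was not tested.

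Nr1i3, which encodes CAR, was above 0 in 41 of 80 large-chip, 5 of 30 medium-chip and 15 of 39 small-chip cells, with medians of 0.40, 0 and 0 and highest values of 180, 76.3 and 838. Nr1i2, which encodes PXR, was above 0 in 55 of 80, 11 of 30 and 16 of 39 cells of the large, medium and small chips, with medians of 3.84, 0 and 0 and highest values of 103, 43.97 and 411. For Arnt, the partner of AHR, the medians were 1.75, 0 and 0, and it was above 0 in 51 of 80, 11 of 30 and 11 of 39 cells and at 10 or more in 14, 3 and 3 cells. Among cells with spike-ins under 50% the order of the chips changed: Nr1i2 was above 0 in 50 of 64 large-chip, 7 of 7 medium-chip and 5 of 12 small-chip cells. In the same cells Nr1i3 was above 0 in 34 of 64, 4 of 7 and 6 of 12, and Arnt in 49 of 64, 5 of 7 and 5 of 12. The ranges of each receptor overlap between all 3 chips.

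Per kilobase of the longest coding transcript, the large-chip mean values were 127 for Cyp1a2, 14.2 for Ahr, 13.3 for Rxra, 7.02 for Nr1i3, 4.34 for Nr1i2 and 1.39 for Arnt. By the median cell the order was 5.90 for Cyp1a2, 5.23 for Rxra, 1.504 for Nr1i2, 1.29 for Ahr, 0.40 for Arnt and 0.13 for Nr1i3. Ahr and Nr1i3 thus rank higher by the mean than by the median. For Ahr the 3 highest cells held 45.7% of its summed signal in the chip. Between neighbouring receptors in the order of means, the SD over cells of the higher one exceeds each step. That SD describes how cells vary and not the error of a mean. Differences between receptors within the same cells were not computed, so the order is only descriptive.

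As a log2 ratio of mean values (pseudocount 1), large over medium, Ahr stood at 4.94, Nr1i3 at 1.97, Nr1i2 at 0.70, Cyp1a2 at 0.58, Rxra at 0.23 and Arnt at -0.87, against a median of 0.59 over all genes. Thus 2 of the 6 genes reached 1 or more, while 37.5% of all genes did so, and 0 of 6 reached -1 or less, against 12.7% of all genes. A count of 2 in 6 is near that background. With spike-ins under 50% Nr1i3 stood at 0.41 and Ahr at 3.94, against a median of 0.12 over all genes, so Nr1i3 no longer reached 1. The share of all genes at 1 or more in those cells was not computed. Without cells that hold markers of another type the ratio was 1.63 for Cyp1a2, 4.05 for Ahr and 2.75 for Nr1i3. Nr1i2 (0.67), Rxra (-0.05) and Arnt (-0.80) stayed under 1 there. The share of all genes at 1 or more was not computed for that setting either. Over all cells the Ahr ratio itself was exceeded by 24 of the 8813 genes. Large over small, Ahr stood at 2.87, Arnt at 0.59, Rxra at -0.06, Nr1i2 at -0.48, Nr1i3 at -0.61 and Cyp1a2 at -1.42, against a median of 0.72. Here 1 of 6 genes (Ahr) reached 1 or more, against 41.9% of genes, and 1 of 6 (Cyp1a2) reached -1 or less, against 12.8%. Ahr and Cyp1a2 therefore lay on opposite sides of the median gene between the large and the small chip. In cells with spike-ins under 50% the large over small ratio was 2.76 for Ahr and -1.95 for Cyp1a2, and after each cell was rescaled to the same mouse sum it was 1.81 and -1.78. Without cells that hold markers of another type it was 2.10 and -1.05. The other ratios hung on the cells used: with spike-ins under 50% the large over medium ratio was -0.35 for Cyp1a2, -0.95 for Nr1i2, 0.17 for Arnt and -0.11 for Rxra, and the large over small ratio was 2.19 for Nr1i2, 0.22 for Nr1i3 and -0.37 for Arnt, each with the other sign. A few cells weigh on these means: the 3 highest of the small chip held 65.8% of its Cyp1a2 signal.

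**Figure D1:**
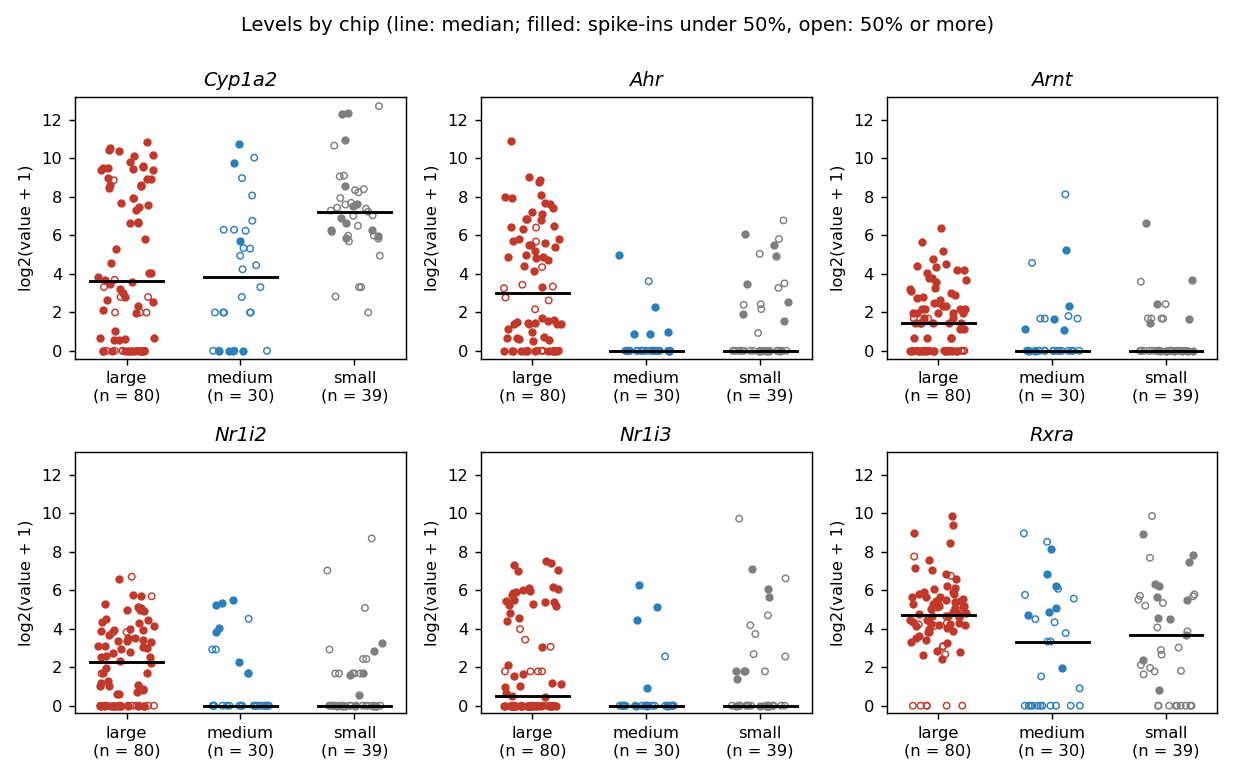
Levels of the 6 genes by chip, as log2(value + 1) on the vertical axis, with 1 point per cell (80 large, 30 medium, 39 small), filled where spike-ins took under 50% of the summed values and open where they took 50% or more; the black line is the median. Cyp1a2 is above 0 in all 39 small-chip cells, and the medians of Ahr, Arnt, Nr1i2 and Nr1i3 are 0 in the medium and small chips.

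The columns of the deposited table do not follow the cell numbers of the labels, and the name of the table mentions a method for ordering cells. Column position, counted from 1, was therefore set against genes of known place in the lobule. A landmark score, the mean z-score of 5 genes of the central vein side (Glul, Cyp2e1, Oat, Gulo and Slc1a2) minus that of 6 genes of the portal side (Cyp2f2, Ass1, Asl, Hal, Sds and Pck1), had a rho with column position of 0.92 over large-chip, 0.90 over medium-chip and 0.81 over small-chip cells. In the large chip the first columns are thus rich in portal landmarks and the last in central ones. In the medium chip the central genes taken singly followed position weakly: Cyp2e1 0.32, Gulo 0.13, Oat 0.07, Slc1a2 -0.08 and Glul -0.11. The portal genes there ran from -0.35 (Pck1) to -0.66 (Cyp2f2). In the small chip Oat had 0.63 and Cyp2e1 0.58, but Glul 0.17, Slc1a2 0.07 and Gulo 0.0063. The central end is thus poorly marked in these chips. Which genes made the order is not given in the sources used here, so Cyp1a2 or a receptor may have been among them, and its rho with the order may be built in.

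Within the large chip Cyp1a2, Ahr and Nr1i3 were higher toward the central end of the order, and Arnt, Nr1i2 and Rxra were not. The rho with column position was 0.78 for Cyp1a2, 0.68 for Ahr and 0.67 for Nr1i3, against -0.07 for Arnt, -0.13 for Nr1i2 and -0.10 for Rxra (n = 80 cells). A rho of 0.3 or more was reached by 3 of 6 genes, against 2.00% of all genes, and -0.3 or less by 0 of 6, against 4.82%. Higher rho values than theirs were found for 9 genes in the case of Cyp1a2, 23 for Ahr and 24 for Nr1i3. With the landmark score in place of the order, a measure that holds none of the 6 genes, rho was 0.70 for Cyp1a2, 0.70 for Ahr and 0.64 for Nr1i3. It was -0.06 for Arnt, -0.13 for Nr1i2 and -0.13 for Rxra, and 1.86% of all genes reached 0.3. In the 64 cells with spike-ins under 50%, rho with position was 0.90 for Cyp1a2, 0.68 for Ahr and 0.72 for Nr1i3, and no other gene exceeded Cyp1a2.

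Split along the order into 5 bins of 16 large-chip cells, Cyp1a2 had medians of 0, 0.79, 9.55, 194 and 734. Its values ran from 0 to 12.01 in bin 1 and from 390 to 1851 in bin 5, so the end bins did not overlap. How many of all genes have end bins that lie apart was not computed, and the order may itself have used Cyp1a2. Cyp1a2 reached 100 in 0, 1, 4, 9 and 16 of the 16 cells of bins 1 to 5.

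Ahr had bin medians of 1.69, 0.22, 2.56, 32.6 and 125. In bin 5 it ran from 40.4 to 524, and in bin 1 from 0 to 16.6 apart from 1 cell at 1895. That cell, at column position 5, had the highest Ahr value of the series and Cyp1a2 listed at 0. It also held 5 of 6 cholangiocyte markers at 10 or more, and its summed values were over 2 times the chip median. With all cells kept, the end bins of Ahr overlapped through that cell, and without it they did not.

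Nr1i3 was listed at 0 in the median cell of bins 1, 2 and 3, and had medians of 2.44 in bin 4 and 57.2 in bin 5. All 16 cells of bin 5 held between 20.1 and 180, while bin 1 reached 2.44 apart from 1 cell at 40.2. Receptor and enzyme thus shared a low portal end and a high central end. The middle of the order differs in capture, since 9 of the 16 cells of bin 3 and 5 of bin 4 had spike-ins at 50% or more, against 1, 1 and 0 in bins 1, 2 and 5. Median genes above 0 were 7421.5, 7294, 3327, 7260.5 and 7861. In cells with spike-ins under 50%, split anew into 5 bins of 13, 13, 13, 13 and 12 cells, the medians were 0, 0.57, 15.2, 386 and 928 for Cyp1a2, 1.72, 0.51, 1.66, 55.8 and 142 for Ahr, and 0, 0, 0.37, 26.7 and 51.3 for Nr1i3.

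The other receptors kept overlapping ranges from end to end. Arnt had bin medians of 3.23, 2.89, 0, 1.96 and 2.34. Nr1i2 had 3.10, 8.22, 0.26, 0.27 and 6.84, and Rxra 29.3, 39.6, 13.97, 20.9 and 33.2. Bin 3, where most cells had spike-ins at 50% or more, held the lowest median of each. In the cells with spike-ins under 50%, the Rxra medians were 32.5, 37.8, 36.7, 17.9 and 33.7.

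**Figure D2:**
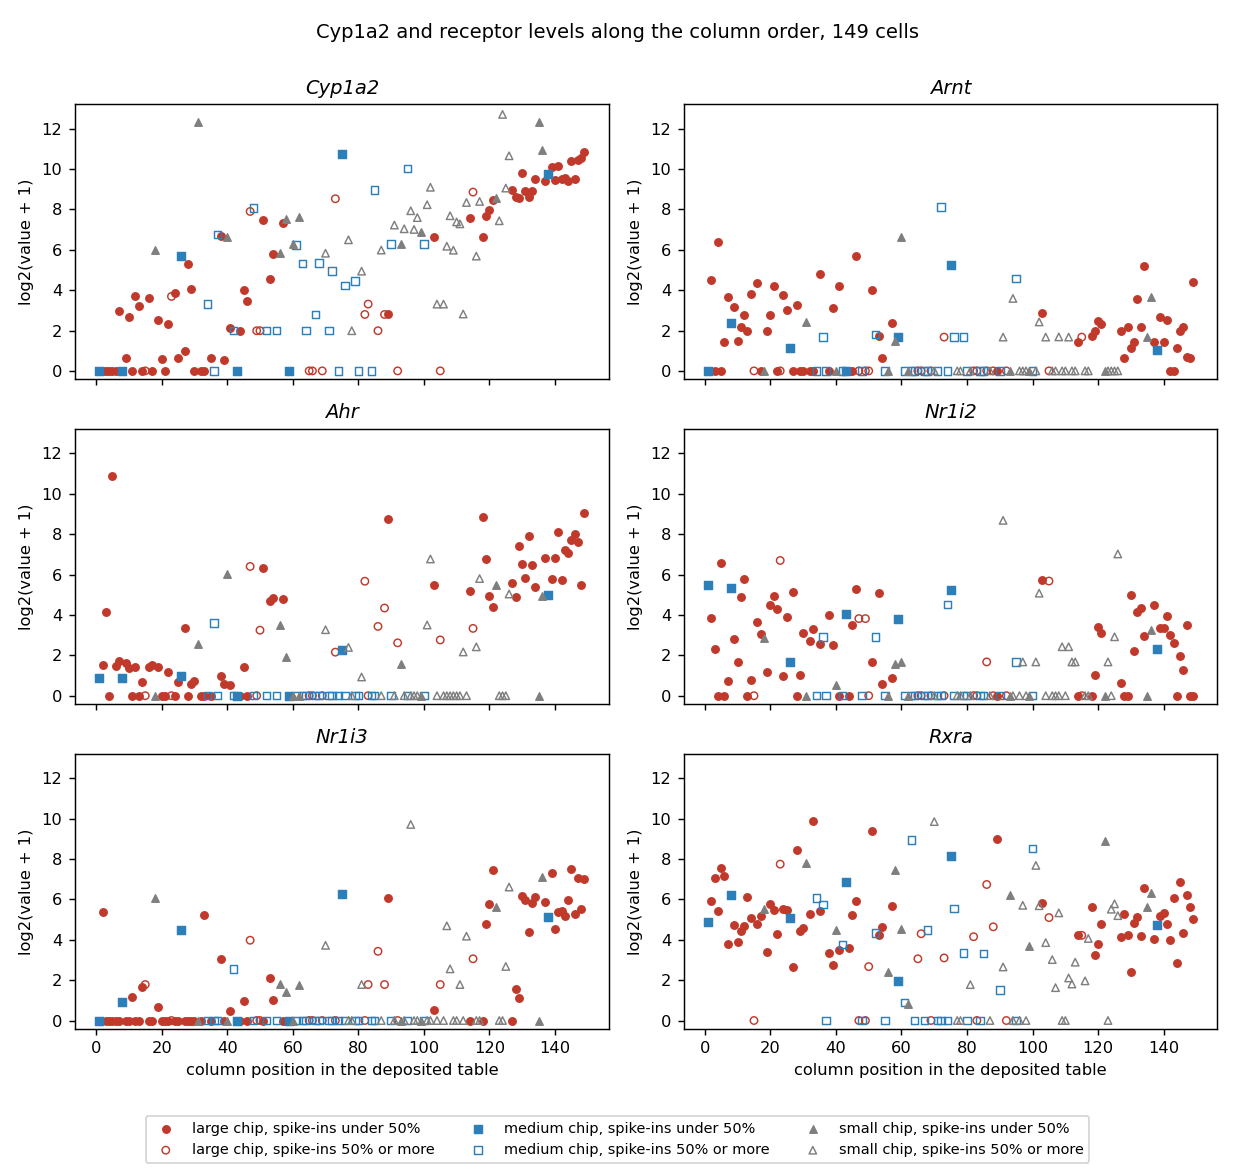
Levels of the 6 genes, as log2(value + 1), against the position of each cell's column in the deposited table (1 to 149); colours and shapes mark the chip, and open symbols mark cells with spike-ins at 50% or more. In the large chip Cyp1a2, Ahr and Nr1i3 are highest in the last positions (rho 0.78, 0.68 and 0.67), while Arnt, Nr1i2 and Rxra lie level.

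Over all their cells, the medium and small chips gave a weaker trend for Cyp1a2 and none of the same kind for Ahr and Nr1i3. Cyp1a2 had a rho with column position of 0.41 in the medium chip (n = 30 cells) and 0.42 in the small chip (n = 39). In the medium chip rho was -0.24 for Ahr, -0.11 for Nr1i3, 0.05 for Arnt, -0.31 for Nr1i2 and -0.22 for Rxra, against a median of -0.18 over all genes; 1.61% of genes reached 0.3 and 23.2% reached -0.3. Small-chip values were -0.03 for Ahr, 0.10 for Nr1i3, -0.04 for Arnt, 0.19 for Nr1i2 and 0.05 for Rxra, against a median of -0.11, with 1.08% of genes at 0.3 or more and 10.8% at -0.3 or less. With Ahr above 0 in 6 medium-chip cells and Nr1i3 in 5, few ranks carry these values. In the 7 medium-chip cells with spike-ins under 50% the direction was that of the large chip, with 0.67 for Cyp1a2, 0.45 for Ahr and 0.56 for Nr1i3. In the 12 such cells of the small chip the values were 0.43, -0.03 and 0.09. The 3 chips were not tested against each other.

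Receptor levels were then set against Cyp1a2 in the same cells. Across large-chip cells the rho with Cyp1a2 was 0.69 for Ahr and 0.62 for Nr1i3, and 0.19, 0.01 and 0.01 for Arnt, Nr1i2 and Rxra (n = 80 cells). Over all genes the median was 0.14. A rho of 0.3 or more was reached by 2 of the 5 receptors, against 10.2% of genes, and 0.5 or more by the same genes, against 1.07%. Of 8812 other genes, 19 had a higher rho than Ahr and 37 a higher one than Nr1i3. In the 64 cells with spike-ins under 50% the values were 0.70 for Ahr and 0.67 for Nr1i3, against -0.02 for Arnt, -0.09 for Nr1i2 and -0.12 for Rxra and a median of 0.01. There 2 of 5 receptors again reached 0.3, against 4.62% of genes. The small positive value of Arnt over all 80 cells was thus not seen in these cells, and it was 0.01 with the number of genes above 0 held constant.

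Cell by cell, the relation of Ahr to Cyp1a2 had an empty corner in the large chip. Large-chip cells had lowest, median and highest Cyp1a2 values of 0, 97.9 and 1851 in the 61 cells with Ahr above 0, and of 0, 0.49 and 38.6 in the 19 cells with Ahr listed at 0. A Cyp1a2 value of 100 or more was found in 30 of the 61 cells with Ahr and in 0 of the 19 without. The reverse corner was filled, since cells with an Ahr value included Cyp1a2 at 0. How many other genes leave such a corner empty was not counted. The corner was not empty in the other chips, where Cyp1a2 reached 100 in 15 of 23 small-chip and 4 of 24 medium-chip cells with Ahr listed at 0. With spike-ins under 50% it did so in 3 of 5 and 0 of 2 such cells. The counts for the other receptors are again for the large chip. For Nr1i3, Cyp1a2 reached 100 in 25 of the 41 cells with a value above 0 and in 5 of the 39 without. For Arnt the counts were 26 of 51 and 4 of 29, for Nr1i2 22 of 55 and 8 of 25, and for Rxra 29 of 74 and 1 of 6.

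Among the 30 large-chip cells with Cyp1a2 at 100 or more, 27 had Ahr at 10 or more and 21 had Nr1i3 at 10 or more. All 21 of the cells with Nr1i3 also had Ahr, and 3 cells had neither. Of the same 30 cells, Rxra was at 10 or more in 24, Nr1i2 in 8 and Arnt in 4. A high count in these cells was thus not particular to Ahr and Nr1i3. Over the whole large chip, however, Ahr was at 10 or more in 36 cells and Nr1i3 in 24. Rxra was at that level in 64 cells, Nr1i2 in 25 and Arnt in 14. Such counts were not made for all genes. In the small chip 23 cells had Cyp1a2 at 100 or more, of which 6 had Ahr, 5 had Nr1i3, 3 had both and 15 had neither at 10 or more. The 6 such cells of the medium chip had Ahr in 1, Nr1i3 in 2 and neither in 4. Among high-Cyp1a2 cells with spike-ins under 50%, 1 of 27 large-chip cells, 0 of 2 medium-chip cells and 5 of 7 small-chip cells had neither receptor at 10 or more. Without cells that hold markers of another type the counts were 2 of 26, 2 of 3 and 14 of 21. Of the 6 medium-chip cells with high Cyp1a2, 3 held Kupffer markers, including 2 of the 4 with neither receptor. A median of 7806 genes was above 0 in those large-chip cells and 4336 in those small-chip cells. The number of genes above 0 thus moved with the missing receptor values between these chips, and its part in them was not tested.

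**Figure D3:**
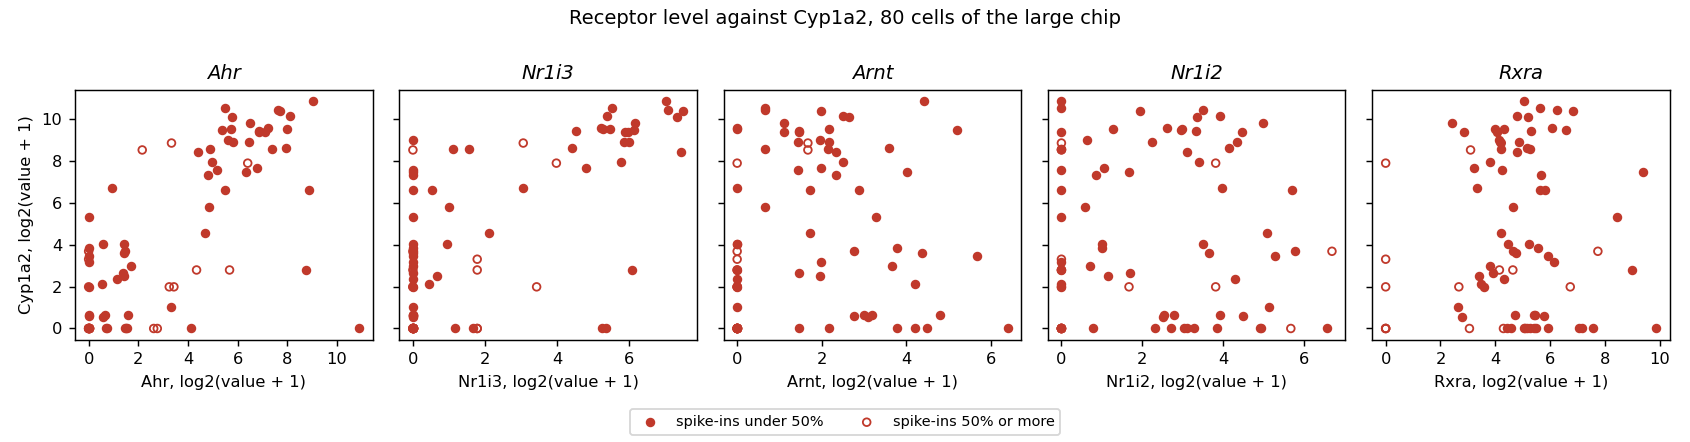
Cyp1a2 against each receptor in the 80 large-chip cells, both as log2(value + 1), with open points for cells with spike-ins at 50% or more. Cells with Cyp1a2 at 100 or more all have Ahr above 0, and rho is 0.69 for Ahr and 0.62 for Nr1i3, against 0.19, 0.01 and 0.01 for Arnt, Nr1i2 and Rxra.

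Much of the relation ran along the axis that all 3 genes share. With column position held constant, the partial rho with Cyp1a2 in the large chip was 0.35 for Ahr and 0.20 for Nr1i3, next to 0.39 for Arnt, 0.18 for Nr1i2 and 0.13 for Rxra. The median of all genes was then 0.26, above the value of Nr1i3 and below that of Ahr. The spread of this partial rho over genes was not computed, so how far either stood from the median cannot be judged. Cyp1a2 may have helped to make the order, so holding position constant may remove part of its own signal. Holding the landmark score constant instead gave 0.39 for Ahr and 0.30 for Nr1i3, with 0.33 for Arnt and a median of 0.24. In the cells with spike-ins under 50% and with position held constant, rho was 0.29 for Ahr and 0.08 for Nr1i3, against a median of 0.07. With the landmark score held constant in those cells it was 0.21 for Ahr and 0.25 for Nr1i3, against a median of 0.04. Within the bins of 16 large-chip cells, the rho of Ahr with Cyp1a2 was -0.05, 0.23, 0.71, 0.34 and 0.20 from bin 1 to bin 5, and that of Nr1i3 was -0.41, 0.07, 0.42, 0.17 and 0.38. The highest Ahr value fell in bin 3, where Arnt (0.62), Nr1i2 (0.46) and Rxra (0.35) also had their highest or second highest values and where 9 of the 16 cells had spike-ins at 50% or more.

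In the medium chip the rho with Cyp1a2 was 0.04 for Ahr, 0.22 for Nr1i3, 0.12 for Arnt, -0.29 for Nr1i2 and 0.05 for Rxra (n = 30 cells). None of the 5 receptors reached 0.3, against 5.04% of genes. The small chip gave 0.17 for Ahr, 0.20 for Nr1i3, 0.28 for Arnt, 0.21 for Nr1i2 and 0.40 for Rxra (n = 39 cells), so 1 of 5 reached 0.3, against 11.6% of genes. The pair that led in the large chip did not lead in the other chips taken whole. In the 7 medium-chip cells with spike-ins under 50%, Ahr had a rho of 0.87 and Nr1i3 of 0.94 with Cyp1a2, against a median of 0.22 over all genes in these few cells. In the 12 such cells of the small chip the values were 0.12 and -0.07.

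**Figure D4:**
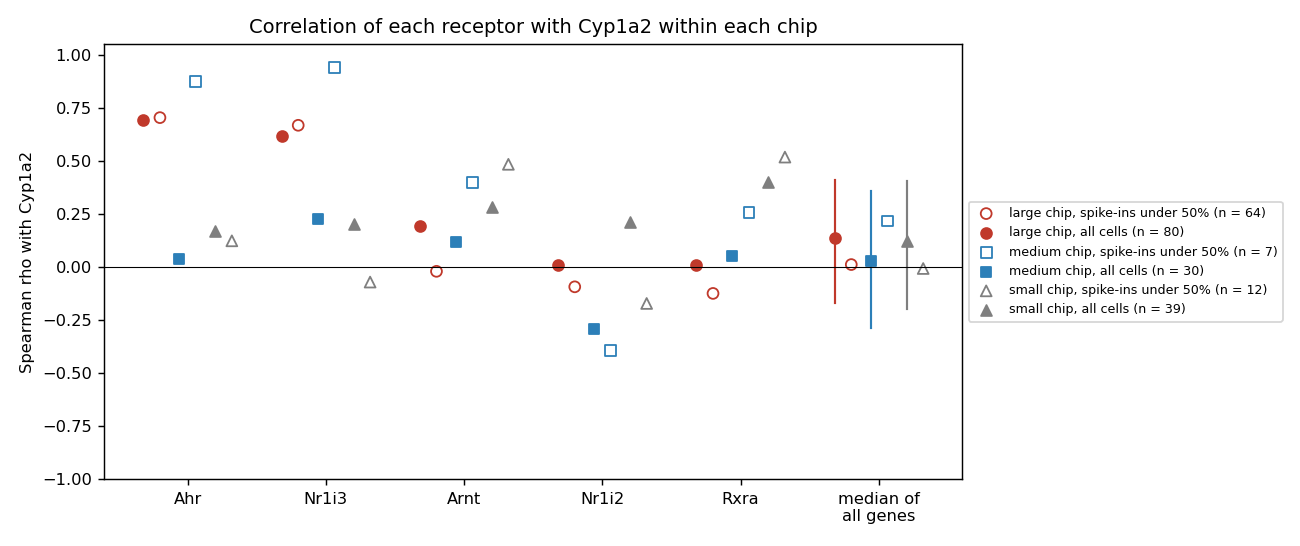
Spearman rho of each receptor with Cyp1a2 within the large, medium and small chip, for all cells (filled) and for cells with spike-ins under 50% (open), with the median over all genes on the right; the vertical lines span the central 95% of genes in all cells. Ahr (0.69) and Nr1i3 (0.62) lie above that span in the large chip, and Arnt, Nr1i2 and Rxra lie inside it.

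Between the receptors themselves, Ahr and Nr1i3 had a rho of 0.58 in the large chip (0.58 with spike-ins under 50%). Known partners did not run together in that chip: the rho of Ahr with Arnt was 0.02, that of Nr1i3 with Rxra 0.03 and that of Nr1i2 with Rxra 0.17. The sensors Nr1i2 and Nr1i3, close relatives with overlapping targets, had 0.12. The remaining pairs of receptors in that chip did not exceed 0.25 (Arnt with Rxra). Over all medium-chip cells the partner pairs, in the order named, had 0.43, 0.38 and 0.38, and over all small-chip cells -0.02, 0.21 and 0.23.

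The machinery around the receptors was examined in 9 lists of genes, with the rho to Cyp1a2 in the large chip as the measure and 10.2% of genes at 0.3 or more and 0.783% at -0.3 or less as the background. Of 6 chaperones and cofactors that hold AHR in the cytosol, 0 reached 0.3 in either direction, with a median of 0.14. Fkbp5, an immunophilin, had 0.24, Hsp90aa1, the stress-inducible HSP90, also 0.24, and Fkbp4 0.12. Of 9 relatives of AHR and ARNT in the bHLH-PAS family, 6 were detected in enough cells, and 0 of these reached 0.3 (median 0.11). Arntl, the clock factor BMAL1, had 0.28, and Clock, its partner, 0.17. Among 5 genes for the complex that keeps CAR inactive, 1 reached 0.3: Ppp2ca, the catalytic subunit of phosphatase 2A, had 0.40.

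Other partners of RXR gave 0 of 7 at 0.3 or more (median 0.13), with 0.14 for Nr1h3 (the oxysterol receptor LXR alpha), 0.14 for Nr1h4 (the bile acid receptor FXR), 0.13 for Ppara (the fatty acid sensor) and 0.24 for Thrb (a thyroid hormone receptor). Of 13 coregulators of nuclear receptors 1 reached 0.3 (Ncoa6, a coactivator, at 0.30), with a median of 0.16. General hepatocyte transcription factors gave 0 of 11 (median 0.09), with Onecut1 at 0.22 and Prox1 at 0.18. None of these regulators therefore matched Ahr and Nr1i3 in rho with Cyp1a2.

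Known targets were counted by receptor. Of 12 AHR targets, 6 were detected in enough cells, and 3 of these reached 0.3 (median 0.24): the glucuronosyltransferase genes Ugt1a6b (0.38) and Ugt1a6a (0.35), which share exons so that their reads may be split uncertainly, and Nfe2l2 (0.33), the gene of the antioxidant factor NRF2. In the cells with spike-ins under 50% 0 of 6 did, with a median of 0.07. Tiparp, a direct AHR target that limits the receptor, had 0.15 and -0.03. Cyp1a1, Ahrr and Aldh3a1, which are induced by activated AHR, were listed at 0 in all 149 cells. Nqo1, a quinone reductase that AHR and NRF2 both induce, was above 0 in 23 large-chip cells, too few cells of the series to be counted in the list.

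Of 29 CAR and PXR targets, 23 were detected in enough cells and 14 of them reached 0.3 (median 0.44), and 10 also had a rho of 0.3 or more with column position. In the cells with spike-ins under 50% it was 14 at 0.3 or more and 1 at -0.3 or less, against 4.62% and 5.32% of genes. Cyp2c54 had 0.80, Cyp2c37 0.73 and Cyp2c50 0.71, P450 genes of a family with near-identical copies whose reads may be split uncertainly. Slco1b2, an uptake transporter of bile acids and drugs, had 0.72. The gene below -0.3 was Cyp3a13, at -0.44 (named for the count), and in all 80 cells it had -0.14. Cyp2b10, the target most used to read CAR activity in mice, was above 0 in 3 large-chip cells, and Cyp2b9 was listed at 0 in all cells.

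Genes that serve P450 enzymes gave 6 of 14 at 0.3 or more (median 0.22). Cyb5, the electron donor cytochrome b5, had 0.61, Por, the P450 reductase, 0.50, and the haem synthesis genes Cpox and Alad 0.53 and 0.42. By comparison Alas1, which makes the rate-limiting enzyme of haem synthesis, had 0.22.

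By the same measure, and among genes with a large-chip mean above the median gene, the genes most like Cyp1a2 over 80 cells were Rgn (0.81, a calcium-binding lactonase of vitamin C synthesis), Cyp2c54 (0.80), Gstm2 (0.77, a glutathione transferase), Cyp2e1 (0.75, the ethanol-oxidising P450) and Cyp7a1 (0.74, which starts bile acid synthesis from cholesterol). Cyp2c37, Slco1b2, Gulo, Cyp2c38 and Gsta3 followed, from 0.73 down to 0.71. The most opposed were Hal (-0.63, histidine ammonia-lyase), Cyp2f2 (-0.63), Apoc2 (-0.60), Sds (-0.57, serine dehydratase) and Gls2 (-0.56, the liver glutaminase). Ahr was most like Cyp2e1 (0.76), Aldh3a2 (0.71) and Oat (0.70), and Nr1i3 was most like Cyp2c29 (0.69), Cyp2c50 (0.69) and Rgn (0.69). The nearest genes of the other receptors were of another kind: Sec61a1 (0.67), Srebf1 (0.62) and Nfu1 (0.59) for Arnt, Fahd1 (0.49), Ewsr1 (0.48) and Cobl (0.47) for Nr1i2, and Iigp1 (0.57), Pgam1 (0.56) and Tnrc6b (0.54) for Rxra.

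Markers of other liver cells moved in part with the genes of the central end. All 12 endothelial markers are in the table and above 0 in some large-chip cell. Their summed level ran from 0 to 52146 over the large chip with a median of 0.89, and its rho was 0.24 with Cyp1a2, 0.37 with Ahr and 0.28 with Nr1i3. The 6 cholangiocyte markers, also all above 0 somewhere in the chip, summed to between 0 and 41184 (median 36.3), with a rho of -0.32 with Cyp1a2, -0.23 with Ahr and -0.40 with Nr1i3. No large-chip cell held 3 Kupffer, stellate, lymphocyte or erythroid markers at 10 or more, and the Kupffer markers Clec4f, Vsig4, Marco and C1qc and all 4 erythroid markers were listed at 0 there. Without the 10 large-chip cells that carry markers of another type, the rho with Cyp1a2 was 0.76 for Ahr and 0.62 for Nr1i3 (n = 70 cells), so the relation is as large without them. The highest Ahr values did touch these cells, since 3 of the top 4 (1895, 463 and 435, but not 524) belonged to cells with cholangiocyte or endothelial markers, all 3 with summed values over 2 times the chip median.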

How the data were processed

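Per the submitters' processing notes, CASAVA 1.8.2, Bowtie 0.12.9, RSEM 1.2.3 and mm10 were used. The authors deposited 1 table of normalised signal values (normalised expected counts with 2 decimals), whose name mentions SCnorm and Wavecrest. How cells were filtered, scaled and ordered is not given in the sources used here. The table has 20400 entries, 92 of them spike-ins. All columns were matched to labelled cells and 0 were left out. Whole reads cannot be recovered from it, so depth is unknown, and cells differ in their summed values (the median cell sums to 1817210 on the large chip, 5678140 on the medium one and 5539880 on the small one).

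From these values Spearman's rho, partial rho, medians, bins of column position and log2 ratios of means were computed within chips for every gene above 0 in at least 20% of cells, with 0.3 and a log2 ratio of 1 as limits for counting. Endothelial and other markers were counted at 10 or more. Intervals are exact Clopper-Pearson at 95% and cover the counting of cells. No doublet caller was run, and no test between groups was made. The code was tested on simulated data with planted correlations.

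The members and lists were chosen with earlier results of these data known. Genes named by rule are the 6 members, the 10 most and 5 least like Cyp1a2 whose large-chip mean exceeds that of the median gene, the 3 most like each receptor, and up to 4 of each list by size of rho; others are named for a count, and 1 gene that the rule chose is not reported here. Promoters are from RefSeq (GRCm38.p6), with 5 of 6 members matched. Scripts ran in Python 3.11.15 with scipy 1.17.1, pandas 2.3.3 and numpy 2.4.6, and figures were drawn with matplotlib 3.10.9. Alternatives covered the scale, rescaling of cells, depth, subsets of cells, other chips and other limits.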

Additional observations from a re-analysis of the deposited data

How the results depend on the processing

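In the large chip the rho of Cyp1a2, Ahr and Nr1i3 with column position and with the landmark score, and that of Ahr and Nr1i3 with Cyp1a2, stayed positive and at 0.3 or more under Pearson's r on log2 values with either pseudocount, rescaling, a partial rho on genes above 0, spike-ins under 50%, leaving out cells with markers of another type and pooling of all 149 cells. Across all alternatives, 247 values of the main comparisons moved by less than the spread set for them (the SD of a rho over the 3 chips, the SD of log2 values over cells, or 1.5 times a count), 46 moved further and 6 that had reached a limit for counting changed sign, and 25 of 36 shares of cells moved beyond their interval. Counting values below those limits, 42 changed sign. The cause was not tested for any of them. The spread of a rho is widest where the chips differ most, so a value within its spread need not lie close. At constant position the rho of Ahr with Cyp1a2 was 0.35 against 0.69, and it counted as within its spread of 0.35. Alternatives chosen after seeing the data left out cells with more than 2 times the median sum, held column position or landmark score constant, or left out cells with markers of another type from the levels by chip and from the medium and small chips.

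Of the 52 that moved further or turned, 25 came with another chip. For column position, the medium chip gave 0.41 for Cyp1a2, 0.046 for Arnt, and negative values for Ahr (-0.24) and Nr1i3 (-0.11); the small chip gave 0.42 for Cyp1a2, -0.026 for Ahr, 0.099 for Nr1i3, 0.19 for Nr1i2 and 0.055 for Rxra. For the landmark score, the medium chip gave 0.25 for Cyp1a2, -0.17 for Ahr, 0.075 for Arnt, -0.11 for Nr1i3 and -0.35 for Rxra, and the small chip 0.38 for Cyp1a2, -0.037 for Ahr, 0.066 for Nr1i2 and 0.0062 for Nr1i3. Against Cyp1a2, the medium chip gave 0.036 for Ahr, 0.22 for Nr1i3 and -0.29 for Nr1i2, and the small chip 0.17 for Ahr, 0.28 for Arnt, 0.20 for Nr1i3 and 0.40 for Rxra.

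In the large chip, the rho of Arnt with Cyp1a2 was 0.10 as Pearson's r with a pseudocount of 1, 0.0064 at a constant number of genes, -0.020 with spike-ins under 50%, 0.034 in cells with Cyp1a2 above 0, -0.14 without the cells of large sum, 0.39 at constant position and 0.33 at constant landmark score. With position it was 0.025 as Pearson's r with a pseudocount of 0.1, -0.18 at a constant number of genes and -0.18 without the cells of large sum, and with the score 0.044 and -0.18 under the first pair of these settings. Nr1i3 against Cyp1a2 was 0.20 at constant position and 0.30 at constant score. The log2 ratio from medians was 1.46 for Arnt, large over medium, and 2.28 for Nr1i2, large over small, which was 2.19 with spike-ins under 50%.

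For the lists, a limit of 0.5 left 0 AHR targets, 0 CAR chaperones, 0 coregulators and 3 P450 support genes. With spike-ins under 50% there were 0 AHR targets and 0 coregulators at 0.3 or more, and 1 gene at -0.3 or less among CAR and PXR targets, P450 support genes and hepatocyte regulators each. With genes above 0 in at least 1 cell, 1 RXR partner reached 0.3.

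No paired analysis was possible because no test between groups was made and the numbers in the labels only name cells. All values describe 149 cells of 1 mouse. Chip, cell size and capture cannot be told apart, and a listed 0 does not show that a transcript was absent. Which genes made the column order is not given, so a rho with it is not independent evidence. The floor in cells with spike-ins at 50% or more differs by gene. There the lowest value above 0 was 2.97 for Cyp1a2, 2.44 for Nr1i3 and 2.19 for Arnt and Nr1i2. It was 0.90 for Ahr and 0.87 for Rxra. Read depth is unknown.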

Other observations

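On the large chip the 3 highest Rxra values, 939, 666 and 509, came from cells whose values summed to 5171760, 5568440 and 5357370, against a chip median of 1817210, with spike-in shares of 40.99%, 35.99% and 34.04%. In all, 23 of the 80 large-chip cells had more than 2 times the median sum. Without them, over 57 cells, the rho with Cyp1a2 was 0.83 for Ahr and 0.75 for Nr1i3, and the rho with column position was 0.91 for Cyp1a2, 0.78 for Ahr and 0.75 for Nr1i3.

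Over the 30 medium-chip cells the rho of Ahr was 0.65 with Nr1i2, 0.43 with Arnt, 0.47 with Rxra and 0.70 with Nr1i3, against 0.04, 0.02, 0.09 and 0.58 over the 80 large-chip cells. In the 7 medium-chip cells with spike-ins under 50% the same values were -0.27, 0.34, 0.13 and 0.93. No value over all gene pairs was computed beside them, and the chips were not tested against each other.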
